A study of Homo sapiens with 2 samples.

Results

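Noncoding RNA genes of 2 kinds were compared between 1 sample of HL60 by its label left untreated and 1 given 3 µg/ml eltrombopag for 36 h. The first are the snoRNA host genes GAS5, SNHG1, SNHG5, SNHG7 and SNHG12, and the others are the nuclear RNAs MALAT1 and NEAT1 with PVT1 and TINCR. HL60 is a human promyelocytic leukaemia cell line. Eltrombopag is an oral drug that activates the thrombopoietin receptor and chelates iron. Both samples grew in RPMI with 10% serum. The untreated label names neither a vehicle nor a time in culture, and these cannot be told apart from the drug. The members were the probe sets that the platform annotation assigns to 1 of these 9 genes and no other. That rule gave 17 of 54613 probe sets and 4 of the 9 genes, with 12 probe sets for MALAT1, 3 for TINCR and 1 each for GAS5 and PVT1.

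The other 5 genes, SNHG1, SNHG5, SNHG7, SNHG12 and NEAT1, had only shared probe sets, whose annotation also names small RNA genes that lie inside the host. There were 24 shared probe sets for the 9 genes, among them 4 more for GAS5 and 4 more for PVT1. Such a probe set cannot be given to the host alone by its annotation, and it is described here as a probe set of the locus, apart from the members. It was taken up after the annotation and its values had been seen. All the partners are snoRNA or microRNA genes within the RefSeq span of the host, for example 8 SNORD genes in SNHG1 and MIR612 in NEAT1.

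A snoRNA host gene makes a spliced transcript whose introns are trimmed into small nucleolar RNAs, the guides that direct chemical modification and processing of ribosomal RNA. In several hosts the spliced exons hold no long reading frame, start with a run of pyrimidines as ribosomal protein messengers do, and are removed by nonsense-mediated decay when they are translated. GAS5 was found as a transcript that accumulates in growth-arrested cells. MALAT1 lies in nuclear speckles, where splicing factors are stored, and NEAT1 is the scaffold of paraspeckles and is made as a short and a long isoform from 1 start. PVT1 lies next to MYC and is gained together with it in many tumours. TINCR was described as a noncoding RNA of keratinocyte differentiation, and RefSeq now lists the gene as protein coding.

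The start regions of the 5 host genes are shown to compare the letters at their starts. Each line gives 60 bases, 20 before and 40 from the RefSeq start, on the minus strand of GRCh38.p14. Capitals mark a C followed by at least 4 pyrimidines (C or T), where such a run begins within 5 bases of the start.
SNHG12: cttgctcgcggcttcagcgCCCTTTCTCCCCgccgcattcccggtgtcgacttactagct
SNHG5: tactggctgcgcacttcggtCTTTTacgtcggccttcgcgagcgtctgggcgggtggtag
SNHG7: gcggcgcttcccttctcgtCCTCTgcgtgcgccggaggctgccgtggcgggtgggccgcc
SNHG1: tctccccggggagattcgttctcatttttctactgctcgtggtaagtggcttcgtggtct
GAS5: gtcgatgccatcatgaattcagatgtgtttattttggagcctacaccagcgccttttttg

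These windows lie at chr1:28581834-28581893 for SNHG12, chr6:85678694-85678753 for SNHG5 and chr9:136728145-136728204 for SNHG7. SNHG1 is at chr11:62855846-62855905 and GAS5 at chr1:173869006-173869065. The run was present in 3 of the 5 hosts, 12 bases long in SNHG12 and 5 in SNHG5 and SNHG7, and it was searched in the direction of transcription only. Of all 35116 RefSeq start windows, 21.1% hold such a run, and for GAS5 and SNHG1 its absence says only that these letters are not at this annotated start. The E-box CACGTG, which reads the same on both strands, was found in the 300-base window of SNHG7 alone among the 5 hosts, against 7.26% of all windows. The RefSeq table held windows for 6 of the 9 genes, and MALAT1 had 2 starts there, 1 of them with a pyrimidine run.

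Values are MAS5 signals, a linear brightness per probe set, with 1 array per group. No replicate check or test of the treatment is possible, and 1 array per group limits the precision. Signals below a floor of 56.9, the 60th percentile of both arrays pooled, were set to it ahead of the log2 step, so such a ratio bounds the difference from below when only 1 sample lies under the floor. A gene is called measured where its brightest probe set lies above the floor in at least 1 sample. Ratios are eltrombopag over untreated, and 2-fold, a log2 ratio of 1 in size, was the mark for counting. Of 10324 measured genes, 0.649% were at least 2-fold higher, 2.27% at least 2-fold lower and 63.4% had a ratio below 0. The median over them was -0.12 on the log2 scale as deposited, -0.065 with both arrays centred on their medians, -0.025 with lowess and -0.013 with quantile normalization. Shares of all genes or probe sets below 0 are given as deposited only. A count below 0 after another scaling has no such share beside it.

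The labels were set against marker genes. Of 11 promyelocyte markers with a probe set of their own, 8 were measured, and ELANE, SPI1 and LYZ lay below the floor in both samples. The stem cell markers CD34, PROM1, KIT and HLF were also below it, and MECOM, the 1 measured of 5, read 79.5 untreated and 107.6 with eltrombopag, although the label gives a haematopoietic stem cell type. CDKN2A, a tumour suppressor reported as inactivated in HL60, read 1116 and 782, and a transcript level does not show whether the gene works. Of 12 plasma cell markers 11 were measured, CD27 being the exception, and 6 were at least 2-fold lower, against 2.27% of all measured genes. The summed signal of the 12 was 19437 untreated and 11270 with eltrombopag, most of it from JCHAIN and XBP1. The promyelocyte sum was 15395 and 16445, most of it from SRGN and MYB. Of the 8 measured promyelocyte markers 5 were below 0, against 63.4% of all measured genes. Their median log2 ratio was -0.15, against -0.12 over all measured genes. CEBPA, a myeloid transcription factor, was 2.93-fold lower, from 819 to 279. Of the B cell, T cell, erythroid, megakaryocyte and epithelial or fibroblast markers with a probe set of their own, PAX5, HBB, COL1A2 and CD3E were measured. These markers go against the label in part, so the cell type behind every value here is not settled, and the samples are named as labelled. These plasma cell genes were lower in the same sample as the snoRNA host loci described next, and their part in those differences was not tested.

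The snoRNA host loci were lower in the eltrombopag sample. GAS5 had 1 probe set of its own, with a signal of 91.5 untreated and 42.2 with eltrombopag. It was at least 1.61-fold lower, a bound because the eltrombopag value lies below the floor. The 4 shared probe sets of the GAS5 locus were much further above the floor. The first, 224741_x_at, read 4385 untreated and 3033 with eltrombopag, and 224841_x_at read 4380 and 2966. The probe sets 227517_s_at and 228238_at read 1837 and 1179, and 996 and 557. The eltrombopag value was the lower in each of the 5, and the log2 ratios of the 4 shared ones ran from -0.84 to -0.53 with a median of -0.60. None of them reached 2-fold.

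SNHG1 differed by more. Its transcript carries snoRNAs of the box C/D class, which guide 2′-O-methylation, and its single probe set is shared with 8 SNORD genes. The signal was 3634 untreated and 1603 with eltrombopag, 2.27-fold lower. It was past 2-fold on every scale tried, with log2 ratios of -1.18 as deposited, -1.12 with median centring, -1.10 with lowess and -1.08 with quantile normalization. With 1 probe set, no second reading of this locus on the arrays bears on the value.

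SNHG12, whose introns carry H/ACA snoRNAs that guide pseudouridylation, was read by 3 shared probe sets. They gave 2658 untreated and 1637 with eltrombopag, 616 and 332, and 431 and 269, or 1.62-fold, 1.85-fold and 1.60-fold lower. The 3 readings lay close together, with log2 ratios spanning 0.21, against a median span of 0.44 over 1847 genes and loci with at least 3 probe sets measurable on both arrays. That set is not matched in number of probe sets. It includes 695 with at least 4, whose median span was 0.56. SNHG5, the host of SNORD50A and SNORD50B, went from 5101 untreated to 4044 with eltrombopag, 1.26-fold lower in its 1 probe set. SNHG7, which carries SNORA17A and SNORA17B, had 2 probe sets that disagreed. The brighter, 229050_s_at, read 579 and 321, 1.80-fold lower, and the dimmer, 1552729_at, read 89.5 and 100.7, a log2 ratio of 0.17.

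Over the 11 shared probe sets of these 5 hosts, 10 had a ratio below 0, 1 was at least 2-fold lower and the median was -0.68. After each of the 3 other scalings 10 were again below 0, with medians from -0.62 to -0.55. Over the 17089 probe sets that exceeded the floor on both arrays as deposited, shared ones included, 62.4% were below 0, 2.22% were lower by 2-fold or more and 0.62% were higher by as much. Probe sets of 1 locus share their transcript, so these are 5 loci and not 11 independent readings. The plot of signals by probe set shows the lines of GAS5, SNHG1, SNHG5 and SNHG12 sloping down together.

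**Figure D1:**
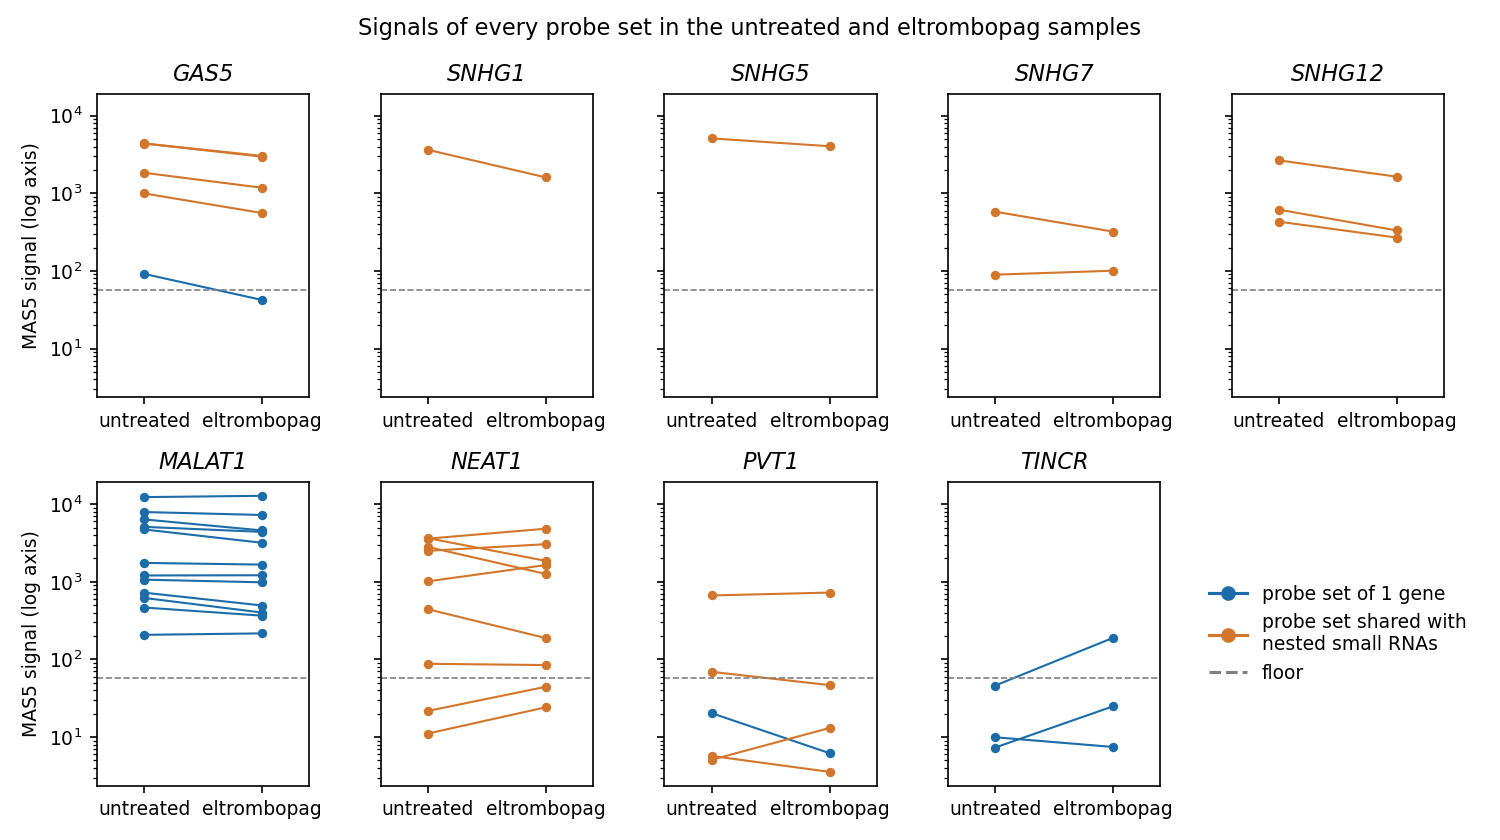
MAS5 signal (log axis) of each of the 41 probe sets in the untreated and the eltrombopag sample, 1 panel per gene and 1 line per probe set; blue lines are probe sets of 1 gene, orange lines are shared with small RNAs nested in the gene, and the dashed line is the floor of 56.9. The lines of GAS5, SNHG1, SNHG5 and SNHG12 all go down, those of NEAT1 go both ways, and 1 TINCR line crosses the floor upwards.

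MALAT1, the nuclear speckle RNA, had the most readings, with 12 probe sets of its own, all above the floor in both samples. The brightest, 1558678_s_at, read 12341 untreated and 12831 with eltrombopag, a log2 ratio of 0.06. The lowest ratio, -0.63, came from 224559_at, which read 620 and 402. It is the only one of the 12 whose name carries neither the suffix _x_at nor _s_at, marks of probes that can match more than 1 transcript. Bright readings also came from 224567_x_at, at 7928 and 7265, and from 223940_x_at, at 6366 and 4590. The probe set 224568_x_at read 4725 and 3183, or 1.48-fold lower, and 224558_s_at read 1208 and 1215. The remaining 6, with untreated signals from 207.5 to 5106, had ratios from -0.55 to 0.06. None of the 12 reached 2-fold in either direction, against 0.616% higher and 2.21% lower among probe sets of 1 gene measurable in both samples. Their median log2 ratio was -0.17, close to the median of all measured genes. Of the 12, 9 were below 0 as deposited, against 62.4% of probe sets of 1 gene measurable in both samples. The count was again 9 when both arrays were centred on their medians, 8 when lowess was used and 7 with quantile normalization. The median was -0.11, -0.09 and -0.10 under those 3 scalings. The count below 0 thus changed with the scaling while the median stayed negative. Its ratios spanned 0.69, against a median span of 0.56 over 695 genes and loci with at least 4 such probe sets, and 35.0% of those were as wide. Only 2 of those had at least 12, as MALAT1 did. The median span of the 2 was 0.90, and MALAT1 was the narrower.

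The NEAT1 locus split into groups of probe sets that went opposite ways. All 9 of its probe sets are shared with MIR612, a microRNA gene inside NEAT1, and 7 lay above the floor in both samples. On the lower side, 224565_at read 3648 untreated and 1862 with eltrombopag, 224566_at read 2812 and 1261, and 214657_s_at read 443 and 188. These were 1.96-fold, 2.23-fold and 2.35-fold lower. On the higher side, 225239_at read 3599 and 4836, 227062_at read 1014 and 1646, and 234989_at read 2510 and 3054, or 1.34-fold, 1.62-fold and 1.22-fold higher. The seventh, 238320_at, read 87.9 and 84.6, and its sign turned under the other scalings, while the other 6 kept theirs under all 4.

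Set against the array, this disagreement was wide. The log2 ratios at NEAT1 spanned 1.93, from -1.23 to 0.70. Only 4 of the 695 genes and loci with at least 4 probe sets had a span as wide, NEAT1 included. Of the 695, 39 had at least 7 probe sets, as NEAT1 did. Their median span was 0.78, and the 1 as wide was NEAT1 itself. Both comparisons were chosen after the values were seen. Which stretch of the short or the long isoform each probe set reads was not analysed here, so no isoform can be given a direction. Another probe set annotated to this locus, 220983_s_at, carries a sequence accession that RefSeq lists under SPRY4. It read 11.1 and 24.2, and 239269_at read 21.7 and 44.4, below the floor in both samples, and neither has a ratio. The plot of single probe sets sets the narrow fan of MALAT1 beside the split of NEAT1.

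**Figure D2:**
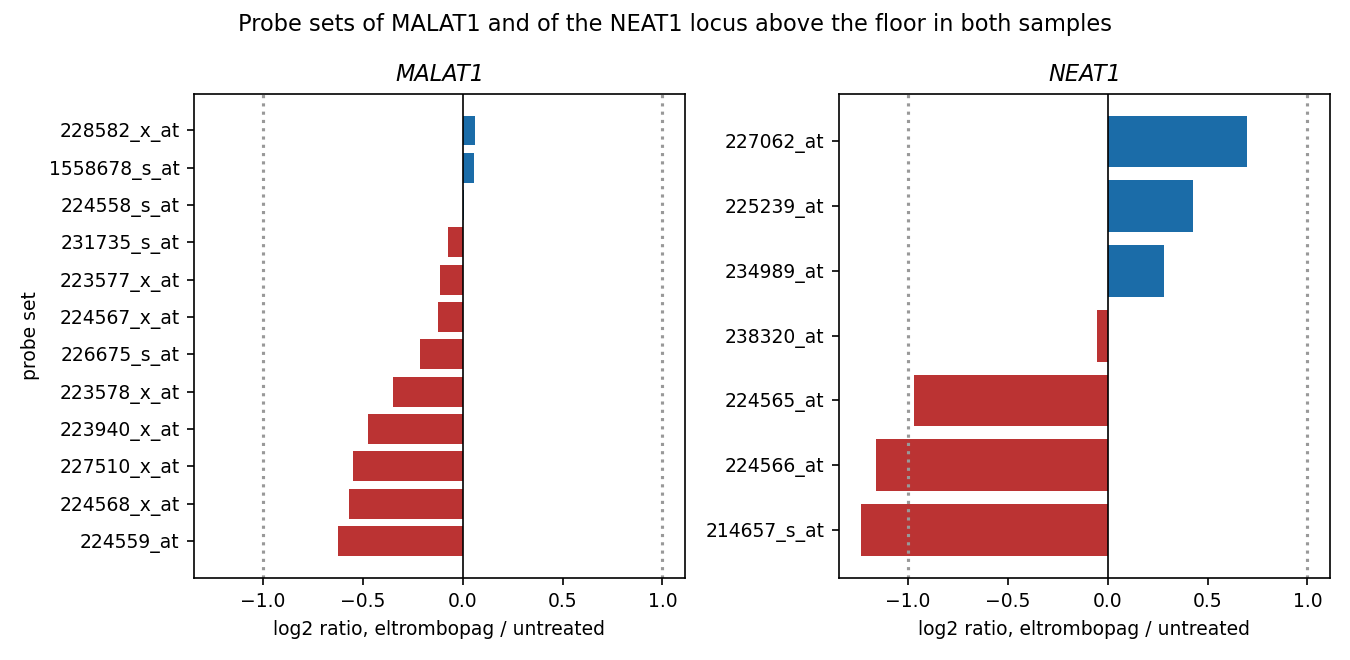
Log2 ratio of eltrombopag over untreated for each MALAT1 probe set (left, 12) and each probe set of the NEAT1 locus (right, 7) above the floor in both samples; bars start at 0, blue is above and red below it, and dotted lines mark 2-fold. MALAT1 runs from -0.63 to 0.06, and NEAT1 from -1.23 to 0.70 with 3 bars well on either side.

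PVT1 could be followed only through a shared probe set. Its 1 probe set of its own read 20.3 untreated and 6.20 with eltrombopag, below the floor in both samples, so no ratio is given. The brightest probe set shared with MIR1204, 1558290_a_at, read 667 and 727, a log2 ratio of 0.12. The next, 222087_at, read 69.2 and 46.7, on either side of the floor, and the remaining 2 shared probe sets were below it. MYC, the protein-coding neighbour, read 4879 and 4476, a log2 ratio of -0.12, close to the median of all measured genes. No 2-fold difference was seen at either gene.

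TINCR was the 1 member gene at least 2-fold higher, of 3 measured. Its probe set 229385_s_at read 46.1 untreated and 190 with eltrombopag, at least 3.34-fold higher, a bound because the untreated value lies below the floor. The probe set 244374_at read 7.33 and 24.9, and 235994_s_at read 9.94 and 7.45, all below the floor. The ratio thus rests on 1 probe set with the suffix _s_at, and against a background of 0.649% it is 1 reading of a dim transcript. With the floor at the 75th percentile the log2 ratio was 0.16. By the same count none of the 3 was at least 2-fold lower. With the shared probe sets 1 of 9 was higher, TINCR, and 1 lower, SNHG1, against 0.653% and 2.27% of 10418 genes and loci. The plot of ratios by gene gathers these values.

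**Figure D3:**
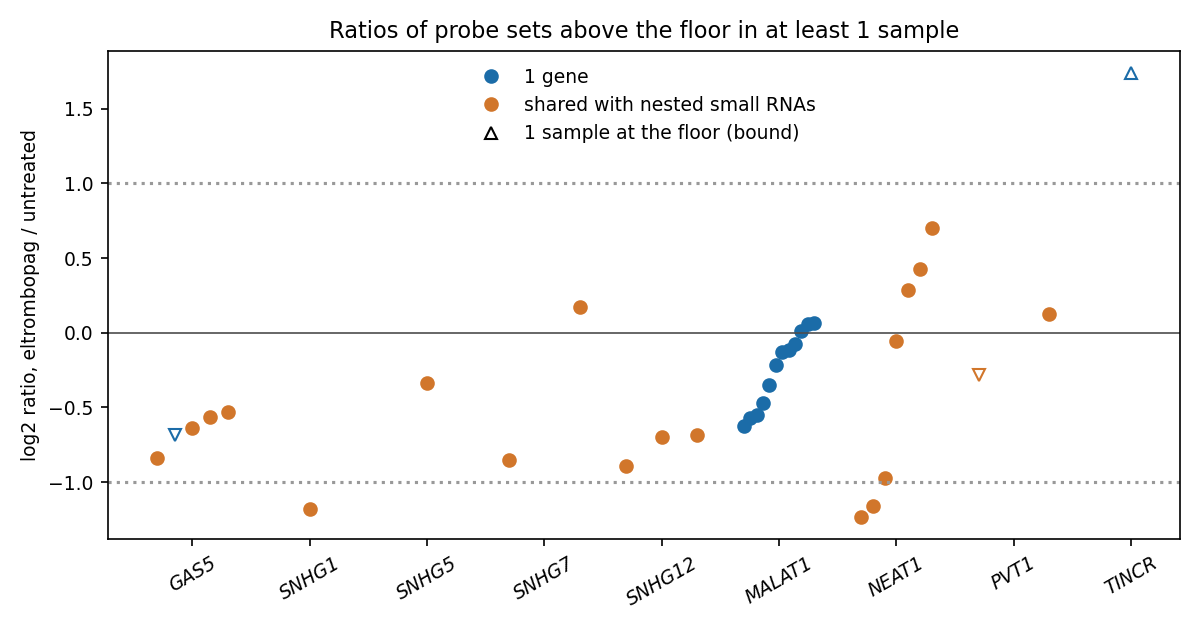
Log2 ratio of eltrombopag over untreated for each probe set above the floor in at least 1 sample, by gene; blue is a probe set of 1 gene, orange one shared with nested small RNAs, open triangles are bounds with 1 sample at the floor, and dotted lines mark 2-fold. The host loci from GAS5 to SNHG12 lie below 0 except for 1 SNHG7 point, and the TINCR bound stands at 1.74.

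Other noncoding snoRNA hosts were also lower. Of 24 listed, 9 had a probe set of their own, 6 were measured, 6 were below 0 and none reached 2-fold, with a median log2 ratio of -0.50. DANCR, named for opposing the differentiation of progenitor cells, read 1608 untreated and 809 with eltrombopag, a log2 ratio of -0.99 and just short of 2-fold. SNHG32 read 3198 and 1735, or 1.84-fold lower, EPB41L4A-AS1 2232 and 1568, and SNHG19 1385 and 987. With shared probe sets included, 14 hosts were measured and 14 were below 0, against 63.5% of all genes and loci as deposited. That count was 13 after median centring and 12 after lowess and quantile normalization, and the median went from -0.35 as deposited to -0.22. The largest of the added loci were SNHG9, from 244 to 143, and SNHG8, from 1857 to 1257.

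Of these 14 other hosts, 11 had a RefSeq start window. The 7 with a pyrimidine run at the start had log2 ratios from -0.99 to -0.035 with a median of -0.49, and the 4 without it from -0.51 to -0.24 with a median of -0.35, so the ranges overlapped. Protein-coding genes that carry snoRNAs in their introns had a median near 0. Of 15 measured, 7 were below 0, against 63.4% of all measured genes, none reached 2-fold and the value was 0.04. The lowest, SLC25A3, the mitochondrial phosphate carrier, read 2129 and 1407. TOMM20, an outer membrane receptor of mitochondrial import, read 2644 and 1981. RCC1, the exchange factor of the Ran GTPase, had a log2 ratio of -0.35 and CWF19L1 of -0.30.

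Proteins that work on these RNAs are read against the 63.4% of all measured genes that were below 0 as deposited and their median of -0.12. Of 18 snoRNP core proteins and assembly factors, 13 were below 0 and the median was -0.22. The assembly factor ZNHIT3 had a log2 ratio of -0.81, the H/ACA protein NOP10 -0.69, the box C/D protein SNU13 -0.51 and the methyltransferase fibrillarin, FBL, -0.51. Of 14 genes of nonsense-mediated decay and the exon junction complex, 10 were below 0 with a median of -0.21. EIF4A3 and RBM8A, core subunits of the junction complex, had ratios of -0.78 and -0.66, PNRC2 -0.50 and NBAS 0.57. None of the genes in either list reached 2-fold in its brightest probe set. Without probe sets ending in _x_at or _s_at, 1 gene of the decay list was at least 2-fold lower.

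The protein partners of NEAT1 and MALAT1 were set beside the same 63.4% and -0.12. Of 21 paraspeckle proteins, 17 were below 0 as deposited and 12 after lowess and quantile normalization, and the median was -0.17. The 3′ end factors CPSF6 and NUDT21 had ratios of -0.67 and -0.50, MATR3, a nuclear matrix protein, -0.52 and ZC3H6 -0.33. The core paraspeckle proteins NONO and SFPQ, named after their values were seen, had ratios of -0.29 and -0.02. Of 21 nuclear speckle proteins, 11 were below 0 with a median of -0.07, a median that turned positive after lowess and quantile normalization. The splicing factors SRSF10, SRSF1 and SRSF6 had ratios of -0.79, -0.76 and -0.53, and the speckle protein SRRM1 0.47. Of 20 genes of the nuclear exosome and its adaptors, which degrade nuclear RNA, 12 were below 0 with a median of -0.10. EXOSC5 had a ratio of -0.87, EXOSC10, its nuclear catalytic subunit, 0.55, EXOSC3 -0.50 and ZFC3H1 -0.49.

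Long noncoding RNAs of other kinds went both ways. Of 28 measured, 14 were below 0 and 14 above as deposited, against 63.4% of all measured genes below 0, and 10 were below 0 after lowess or quantile normalization. Their median was -0.002 as deposited and none reached 2-fold. SBF2-AS1 was at least 1.42-fold higher, from 41.4 to 80.9, and CCDC18-AS1, MIAT and HCG18 had ratios of -0.49, -0.48 and -0.40. A difference between this list and the host list was not tested. The plot of gene lists places the 5 hosts beside all of them.

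**Figure D4:**
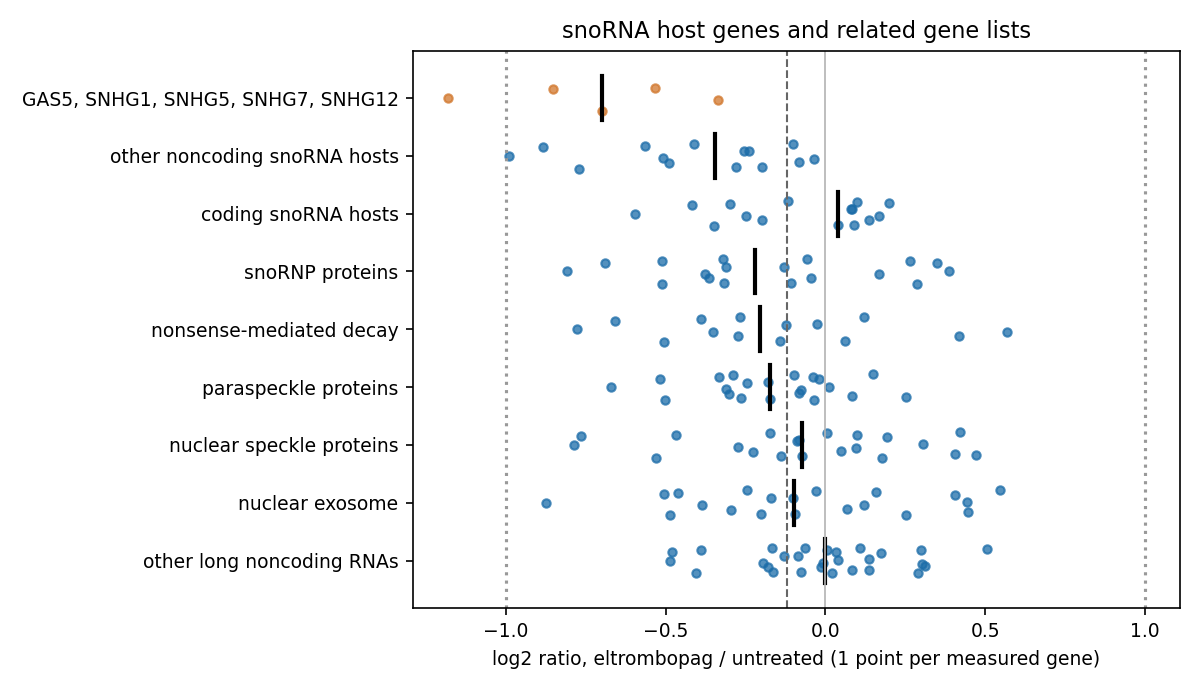
Log2 ratio of eltrombopag over untreated, 1 point per measured gene, for the 5 snoRNA hosts (orange) and 8 other gene lists (blue); both host rows include shared probe sets, black bars are medians, the dashed line is the median of all measured genes at -0.12 and dotted lines mark 2-fold. The 5 hosts have a median of -0.70 and the 14 other noncoding hosts -0.35, and the coding hosts and other long noncoding RNAs lie around 0.

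Protein-coding neighbours of the members were taken from the RefSeq gene table. Beside SNHG1, WDR74 read 415 untreated and 388 with eltrombopag and SLC3A2, the amino acid transporter heavy chain, 1101 and 1209, and neither neighbour came near the 2.27-fold of SNHG1. ZBTB37, which overlaps GAS5, had a log2 ratio of 0.26 in its brightest probe set. SYNCRIP, beside SNHG5, had -0.21 in its brightest, and 5 others measurable on both arrays ran from -0.57 to 0.13. RCC1, beside SNHG12, was lower in both of its probe sets, at -0.35 and -0.30. TRNAU1AP, which overlaps SNHG12, was lower in each of 3 probe sets above the floor, with -0.54 in the brightest, and the remaining one was below it. FRMD8, on 1 side of NEAT1 and MALAT1, read 578 and 293 in its 1 probe set above the floor, a log2 ratio of -0.98. SAFB2, beside TINCR, had 0.15 in its brighter probe set and 0.46 in the other. GSDMC, on the other side of PVT1 from MYC, read 88.6 and 72.9, or -0.28. HTR1E, AGPAT2, DIPK1B and RAB42 were above the floor in 1 sample only, SERPINC1, LCN10 and ZNRF4 in neither, and the other neighbours had no probe set of their own.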

How the data were processed

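RNA of 1 untreated and 1 eltrombopag sample, about 5 µg of total RNA each, was measured on expression arrays. The deposited values are linear signal intensities, 1 for each probe set on each array, made with MAS5 per the submitters' processing notes. Its version and scaling target are not stated here. They were analysed without rescaling, in Python 3.11.15 with pandas 2.3.3 and, for the lowess alternative with a span of 0.3, statsmodels 0.14.6. The annotation names 1 gene for 41091 probe sets, several for 1801 and none for 11721. Of those with 1 gene, 41037 had an identifier in RefSeq (GRCh38.p14), which changed 0 symbols. Of those with several, 279 name 1 gene and small RNA genes inside it, and these are the shared probe sets. A gene was read by its probe set of highest mean log2 signal. No array genome build is given, so gene coordinates are not printed except for the RefSeq start windows.

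With 1 sample per group there is no test. Named genes were all members, up to 4 per list with the largest ratio in size, and the neighbours. Marker genes outside that rule were named after their values were seen. Members and lists were chosen with earlier results of these data known. The alternatives were 3 other scalings, 3 other floors, the mean over probe sets, omission of suffixes _x_at and _s_at, 1.5-fold and 3-fold marks, and agreement of 2 probe sets. Gene calling was checked on simulated data with independent noise per probe set and set differences past the 2-fold mark. That check does not bear on variation between samples.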

Additional observations from a re-analysis of the deposited data

How the results depend on the processing

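No paired analysis was possible because each group holds 1 sample, and for the same reason no sample could be left out. The count of member genes at least 2-fold higher, 1 with or without the shared probe sets, was 0 with the floor at the 75th percentile, when probe sets ending in _x_at or _s_at were left out, and when at least 2 probe sets had to pass. The count at least 2-fold lower, 0 from probe sets of 1 gene, was 1 with a 1.5-fold mark or the floor at the 50th percentile, and 2 with no floor. With shared probe sets it was 1, and 3 with a 1.5-fold mark and 0 with a 3-fold mark. It was also 1 when at least 2 probe sets had to pass, but for another locus. SNHG1 has only 1 probe set, and NEAT1 was counted instead, with 2 probe sets past 2-fold lower. The brightest probe set of NEAT1 was higher, at 0.43. The median log2 ratio over the 3 measured member genes, 0.06, was -0.25 with the mean over probe sets, -0.53 with no floor, where PVT1 joins, and -0.66 without those endings, where TINCR is no longer measured, so the last pair are medians over other genes. Over the 9 genes with shared probe sets the median stayed within 0.21, the spread between probe sets of 1 gene on the log2 scale, of its value of -0.33. Without those endings TINCR dropped out of this set too, so that median, -0.48, is over fewer genes. Among single genes, MALAT1 moved by more, to -0.63 without those endings and -0.25 as a mean. With shared probe sets so did SNHG7, to 0.17 and -0.34 in that order, and NEAT1, to -0.29 as a mean. For GAS5, the probe set of 1 gene moved to -1.12 under lower floors. Its brightest shared probe set stayed at -0.53 there, and without those endings the locus moved to -0.84. TINCR moved to 2.04 under lower floors, and fell to 0.16 once the floor was raised to the 75th percentile. Signals near the floor limit what can be said of PVT1 and TINCR.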
